A study of Mus musculus with 4 samples.

Results

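The secreted side of the Wnt pathway in mouse dermal fibroblasts is described here through 10 genes, the ligands Wnt5a, Wnt2, Wnt4 and Wnt11 and the secreted antagonists Sfrp1, Sfrp2, Sfrp4, Dkk2, Dkk3 and Wif1. They were taken by symbol, with every probe set that the platform annotation assigns to 1 gene, which gave 19 of 34945 single-gene probe sets (10 of 18193 genes). The series holds 4 Affymetrix expression arrays, 1 for each of 4 groups of dermal fibroblasts on a C57BL/6 background. In the in vivo pair, the deleted sample came from animals with a Cre transgene labelled ColI and Rbpj alleles flanked by loxP sites, and the control carried the same loxP alleles without Cre. In the in vitro pair, the deleted sample was given an adenovirus carrying Cre and the control an adenovirus carrying GFP, so both cultures had been exposed to virus. The sources used here do not give age, sex, passage, the number of animals pooled or whether the in vivo cells were cultured. Rbpj encodes RBP-J kappa, which binds DNA and carries Notch signals to the genome.

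Wnt ligands are lipid-modified secreted glycoproteins that bind Frizzled receptors, either with the co-receptors LRP5 and LRP6, which stabilises beta-catenin, or with receptors such as ROR2, which acts without beta-catenin. Secreted antagonists work outside the cell: SFRP proteins carry a Frizzled-like domain and WIF1 a different one, and both bind the ligands, whereas DKK1, DKK2 and DKK4 bind the LRP co-receptors and DKK3 is a divergent member of that family. In skin, dermal fibroblasts supply Wnt ligands and antagonists that act on hair follicles, on the epidermis and on the dermis itself.

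Values are log2 expression levels after quantile normalization of the 4 deposited columns, and a difference is the deleted minus the control array of a pair, also on the log2 scale. With 1 array a group there were no replicates within a pair, so no difference within a pair has a replicate check or a p-value, and the number of arrays limits the precision. As a yardstick, the absolute difference of a pair over 18127 probe sets had a median of 0.26 and a 95th percentile of 1.08 in vivo, and a median of 0.28 and a 95th percentile of 1.0 in vitro. A probe set counted as measured when its mean over the 4 arrays reached 5.28, the 40th percentile of genes, and 15 of the 19 member probe sets did, 5 for ligands and 10 for antagonists. The other 4 (1 each of Wnt5a, Wnt2, Wnt4 and Wif1) are given as values. A member that is high on 1 array can pass this filter through that array alone, so the counts of measured members are descriptions.

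Fibroblast identity and the deletion were checked first. All 12 fibroblast markers, among them Col1a1, Col1a2 and Pdgfra, were at or above 5.28 on every array. Rbpj had 3 probe sets, which differed by -0.10, -0.83 and -0.49 in vivo and by -1.11, -1.34 and 0.10 in vitro (1448957_at, 1454896_at and 1418114_at). Thus 2 of 3 were at least 2-fold lower in vitro and 0 of 3 in vivo, and where the probes lie on the gene was not examined. The mean bioB hybridisation spike was 6.93 (deleted) and 6.97 (control) in vivo and 8.36 (deleted) and 8.39 (control) in vitro, so the system cannot be told apart from an array batch.

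In vivo, the ligand Wnt5a was higher in the deleted sample and the antagonists Sfrp1 and Dkk3 were lower, on every probe set each of them had. Over the measured probe sets, 3 of 15 were at least 2-fold higher in the deleted in vivo sample, all of them of Wnt5a, where 2.86% of all 18127 probe sets were. At least 2-fold lower were 7 of 15, namely 5 of Sfrp1 and 2 of Dkk3, where 3.34% of all probe sets were. In vitro, 1 of 15 was at least 2-fold higher (background 3.87%) and 0 of 15 at least 2-fold lower (background 1.16%). Probe sets of 1 gene share its transcript and are not independent, so these counts rest on 3 genes in vivo and on 1 in vitro. The median difference of the 15 probe sets was -0.98 in vivo and -0.31 in vitro, against -0.0060 and -0.04 over all 18127. That median is weighted towards the 5 Sfrp1 probe sets: with the brightest probe set of each of the 10 genes, 5 were higher and 5 lower in vivo, with a median of -0.12. The measured ligand and antagonist probe sets had in vivo medians of opposite sign, 1.72 over 5 and -1.30 over 10. Of these probe sets, 3 were of Wnt5a and 5 of Sfrp1. With the brightest probe set of each gene, the medians were 0.52 over 3 measured ligands and -0.98 over 5 measured antagonists, with Wnt4 at 0.02. In such bulk samples, fewer cells of a type and less RNA per cell cannot be told apart.

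**Figure D1:**
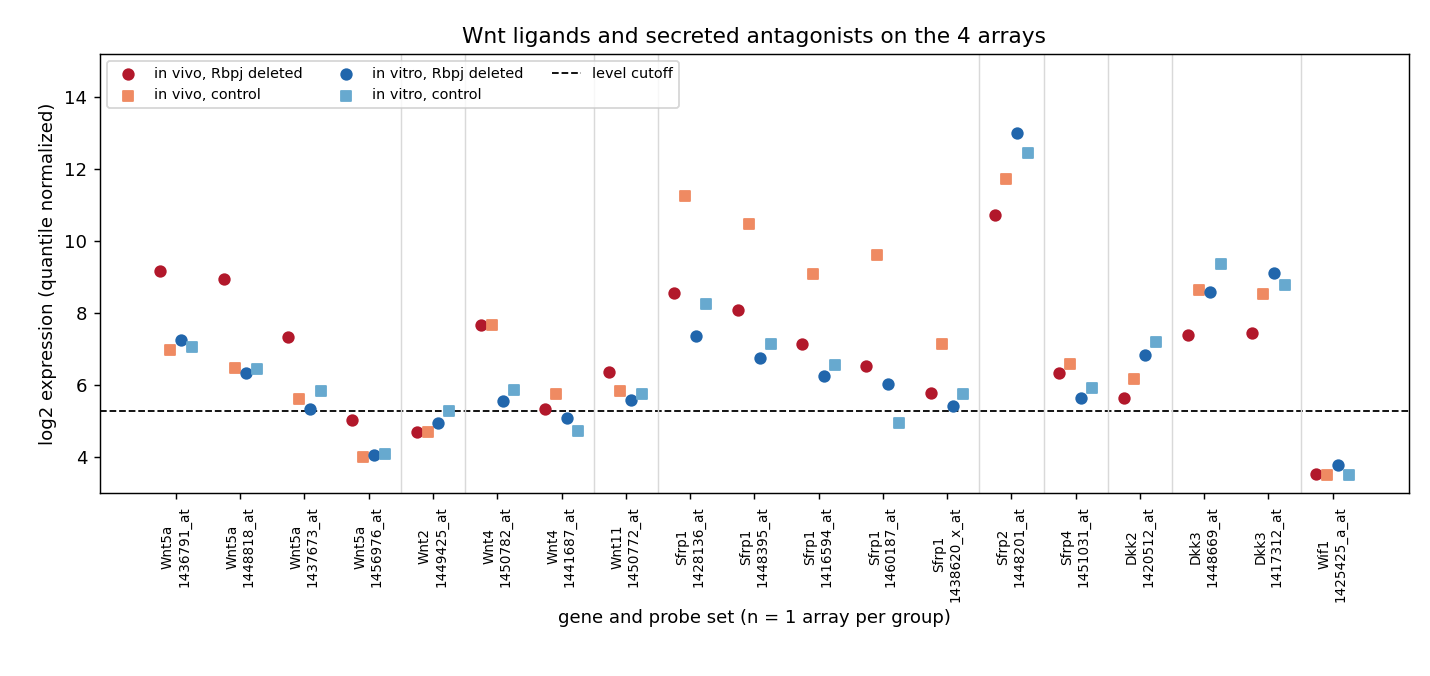
Log2 expression of the 19 member probe sets (x axis, grouped by gene) on the 4 arrays, with 1 point for each array; the dashed line marks the level cutoff of 5.28. The deleted in vivo array stands above the other 3 for every Wnt5a probe set, and the in vivo control stands above the other 3 for every Sfrp1 probe set.

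Wnt5a, a ligand that acts largely through ROR receptors without beta-catenin, read 9.18 in the deleted in vivo sample and 6.98 in its control on its brightest probe set (1436791_at), a 4.59-fold excess. The same probe set read 7.26 in the deleted culture and 7.08 in the control culture. The deleted in vivo sample was therefore high, and the other 3 arrays lay close together, with gaps of 0.18 and 0.10 between neighbours in the order of levels. A second probe set (1448818_at) read 8.96 in the deleted and 6.48 in the control in vivo sample, and 6.34 in the deleted and 6.46 in the control culture. Probe set 1437673_at read 7.33 and 5.62 in the deleted and control in vivo samples, and 5.33 and 5.85 in the deleted and control cultures. These 3 probe sets placed the deleted in vivo sample first by at least 1.48, and the order of the remaining 3 arrays changed from one probe set to the next. The fourth (1456976_at), under the cutoff on average, read 5.04 in the deleted in vivo sample and 4.0 in its control. The in vivo differences of the 4 probe sets ranged from 1.04 to 2.48 (median 1.96, SD 0.63 over probe sets), and those in vitro from -0.52 to 0.18 (median -0.07, SD 0.29).

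Wnt4, a ligand made by several epithelia including epidermis, differed more between the systems than within them on its brightest probe set. Its brightest probe set (1450782_at) read 7.69 in the deleted and 7.67 in the control in vivo sample, and 5.57 in the deleted and 5.88 in the control culture. Both in vivo arrays thus stood above both cultures, by a gap of 1.79, while the 2 in vivo arrays differed by 0.02. Its other probe set (1441687_at), under the cutoff, read 5.33 and 5.76 in the deleted and control in vivo samples. In the deleted and control cultures it read 5.10 and 4.75. Its gap between the systems, 0.24, was smaller than its differences within the pairs (-0.43 in vivo and 0.35 in vitro). The 2 probe sets agreed on the order of the systems and had opposite signs for the deletion in both pairs.

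Wnt11, a ligand known from convergent extension in embryos, read 6.37 in the deleted and 5.85 in the control in vivo sample on its only probe set. It read 5.60 in the deleted and 5.77 in the control culture, so its in vivo difference of 0.52 was between the median and the 95th percentile of the absolute differences and its in vitro difference of -0.17 below the median. Wnt2, which signals through beta-catenin, had 1 probe set under the cutoff, at 4.71 and 4.70 in the deleted and control in vivo samples and 4.95 and 5.28 in the deleted and control cultures. The 4 readings of Wnt2 spanned 0.59 close to the background, and no order is read from them.

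Sfrp1, which binds Wnt ligands and Frizzled receptors, had the largest in vivo deficit among the 10 genes. Its brightest probe set (1428136_at) read 8.57 in the deleted in vivo sample and 11.26 in its control (6.49-fold lower), and 7.38 in the deleted and 8.26 in the control culture (1.83-fold lower). Probe set 1448395_at read 8.09 and 10.48 in the deleted and control in vivo samples and 6.76 and 7.16 in the deleted and control cultures. Both put the in vivo control first and the deleted in vivo sample second, above either culture. Probe set 1416594_at read 7.15 and 9.11 in the deleted and control in vivo samples, and 6.26 and 6.58 in the deleted and control cultures. Probe set 1438620_x_at read 5.79 and 7.15 in the deleted and control in vivo samples, and 5.42 and 5.76 in the deleted and control cultures. These 4 probe sets gave 1 order of levels, with the in vivo control first and the deleted culture last, although on 1438620_x_at the deleted in vivo sample and the control culture were only 0.03 apart.

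The fifth Sfrp1 probe set, 1460187_at, read 6.54 in the deleted in vivo sample and 9.63 in its control, an 8.51-fold deficit that was the largest of the 5. In culture it went the other way, at 6.04 in the deleted and 4.96 in the control culture, a 2.11-fold excess, with the control under the cutoff. The in vivo differences of the 5 probe sets thus ranged from -3.09 to -1.36 (median -2.39, SD 0.67 over probe sets), all of 1 sign, and those in vitro from -0.88 to 1.08 (median -0.34, SD 0.74). The width of such a range grows with the number of probe sets. Among the 132 genes with 5 measured probe sets, it had a median of 1.06 in vitro, and 20 were as wide as the 1.96 of Sfrp1 or wider, Sfrp1 included. In vivo the median width was 0.55, and 2 of the 132 (Sfrp1 and 1 other) were as wide as its 1.73.

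Sfrp2, a close relative of Sfrp1 that is abundant in dermal fibroblasts, had differences of opposite sign in the pairs. Its only probe set read 10.74 in the deleted in vivo sample and 11.72 in its control (1.97-fold lower), and 13.01 in the deleted and 12.46 in the control culture (1.46-fold higher). Both cultures lay above both in vivo samples, and the in vivo difference of -0.98 was just short of the 2-fold threshold. Sfrp4, a member of the same family, read 6.33 and 6.58 in the deleted and control in vivo samples and 5.66 and 5.93 in the deleted and control cultures. Its differences of -0.25 in vivo and -0.27 in vitro were no larger than the median absolute difference of each pair.

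Dkk3 is a divergent member of the Dickkopf family that does not act on LRP co-receptors as the others do. Its probe set 1448669_at read 7.39 in the deleted and 8.64 in the control in vivo sample, and 8.61 in the deleted and 9.38 in the control culture. Its probe set 1417312_at read 7.46 and 8.55 in the deleted and control in vivo samples, and 9.13 and 8.78 in the deleted and control cultures. In vivo the probe sets were close, at 2.37-fold and 2.12-fold lower in the deleted sample, and both put that sample last of the 4 arrays. In vitro they had opposite signs (-0.77 and 0.35).

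Dkk2, which binds LRP co-receptors and can inhibit or weakly activate the pathway, read 5.66 in the deleted and 6.19 in the control in vivo sample, and 6.85 in the deleted and 7.19 in the control culture. Both differences were negative (-0.53 in vivo and -0.34 in vitro), under 2-fold in each pair, and both cultures stood above both in vivo samples. Wif1, a ligand-binding inhibitor, read 3.53 and 3.51 in the deleted and control in vivo samples and 3.80 and 3.52 in the deleted and control cultures. All 4 readings of Wif1 were far under the cutoff, and no difference is read from them.

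**Figure D2:**
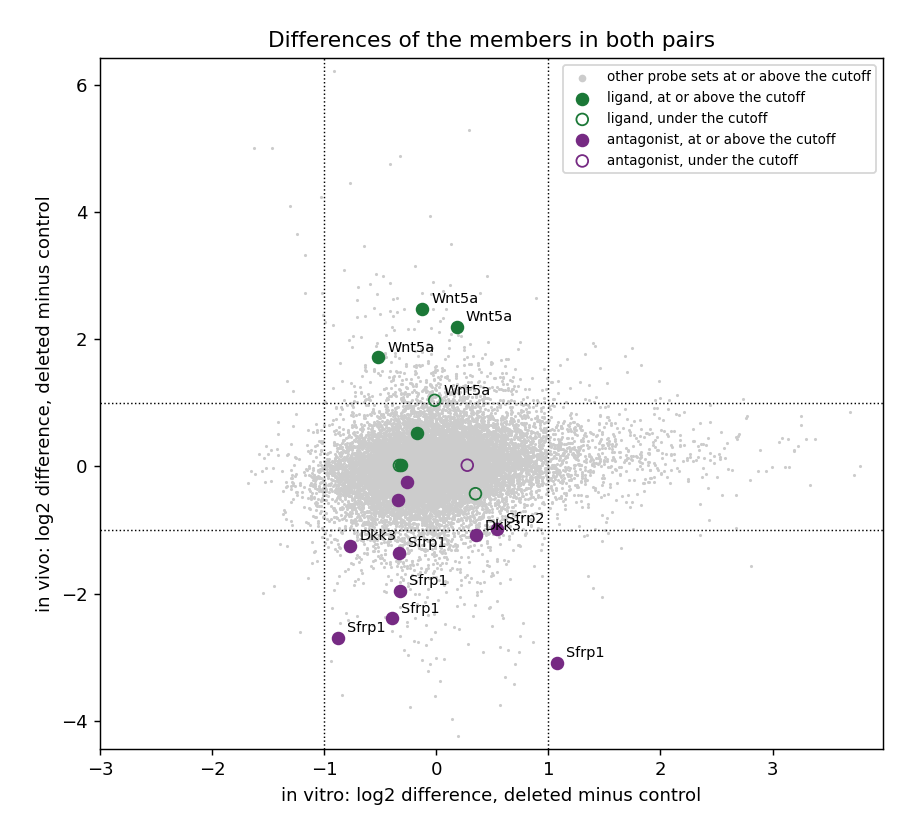
In vitro difference (x axis) against in vivo difference (y axis), log2, deleted minus control, for 18127 probe sets at or above the cutoff (grey), the ligands (green) and the antagonists (purple); open circles are member probe sets under the cutoff, and dotted lines mark 2-fold. The Wnt5a probe sets lie above and the Sfrp1 and Dkk3 probe sets below the 2-fold lines of the in vivo axis, while a single Sfrp1 point lies beyond 2-fold on the in vitro axis.

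Markers of other cell types differed within the same pairs, and they are given beside these genes. In vivo, 9 of 11 measured keratinocyte markers were at least 2-fold higher in the deleted sample, where 2.81% of 10916 genes were, and their summed linear signal over 15 genes was 7137 in the deleted sample and 767 in the control. Krt14 read 10.94 and 5.93, and Krt5 read 10.28 and 6.04, in the deleted and control in vivo samples. The measured keratinocyte markers short of 2-fold were Krt10, at -0.33 in vivo, and Epcam, at 0.07. The 2 Epcam probe sets ranged from 0.07 to 2.62 in vivo. Of the 4 dim keratinocyte markers, Cdh1 read 5.22 in the deleted and 3.56 in the control in vivo sample (3.15-fold higher). Krt1, Krt15 and Trp63 differed by -0.19, -0.19 and -0.45. Skeletal muscle markers were at least 2-fold higher in 9 of 11 cases, and Tnni2 and Ckm, short of 2-fold, were at 0.50 and 0.17. The summed muscle signal was 3837 in the deleted and 946 in the control in vivo sample. Of the 3 dim myogenic regulators, Myog read 7.0 in the deleted and 4.88 in the control in vivo sample (4.34-fold higher), Myod1 read 4.94 and 4.13 (1.74-fold higher) and Myf5 read 3.34 and 3.30, deleted before control. The fibroblast sum was 75407.5 in the deleted and 79938 in the control in vivo sample, a sum set mostly by the brightest matrix genes. Of its 12 genes 1, Lum, was at least 2-fold different in vivo, 2.08-fold lower in the deleted sample, and Pdgfra differed by -0.59. A marker that is high on 1 array can also pass the level filter through that array alone, so the marker counts are descriptions. The part of keratinocytes, muscle cells or other cells in the in vivo differences of the Wnt genes was not tested.

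In vitro the summed keratinocyte signal was 1027 in the deleted and 1529 in the control culture, the muscle sum was 539 in the deleted and 636 in the control culture, and the fibroblast sum was 93687 in the deleted and 80264 in the control culture. Macrophage markers summed to 459 and 559 in the deleted and control in vivo samples and to 714 and 846 in the deleted and control cultures. Of 5 measured macrophage genes 1, Lyz2, was at least 2-fold lower in vivo (-1.06, background 3.81%). The in vivo median of the 5 was 0.05. Endothelial markers summed to 227 and 206 in the deleted and control in vivo samples and to 241 and 235 in the deleted and control cultures, with at most 2 of 7 genes over the cutoff on any array. Of the markers of dermal papilla cells, the signalling fibroblasts of the hair follicle, Sox2, Corin and Prom1 were under the cutoff on every array, and the summed signal of all 7 was 3059 in the deleted and 5172 in the control in vivo sample. Of the 4 measured ones, Alpl read 6.39 in the deleted and 5.14 in the control in vivo sample (2.37-fold higher). Vcan, Crabp1 and Hhip went the other way in vivo, at -0.80, -0.80 and -0.40. Pericyte and smooth muscle sums were 17123 and 14335 in the deleted and control in vivo samples, adipocyte sums 4983 and 6715, and Schwann cell and melanocyte sums 258 and 234. The adipocyte sum was set mostly by its brightest gene, Lpl, at -0.77 in vivo. The other adipocyte genes were higher in the deleted in vivo sample, Adipoq by 0.70, Cidec by 0.64, Fabp4 by 0.23 and Pparg by 0.03.

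**Figure D3:**
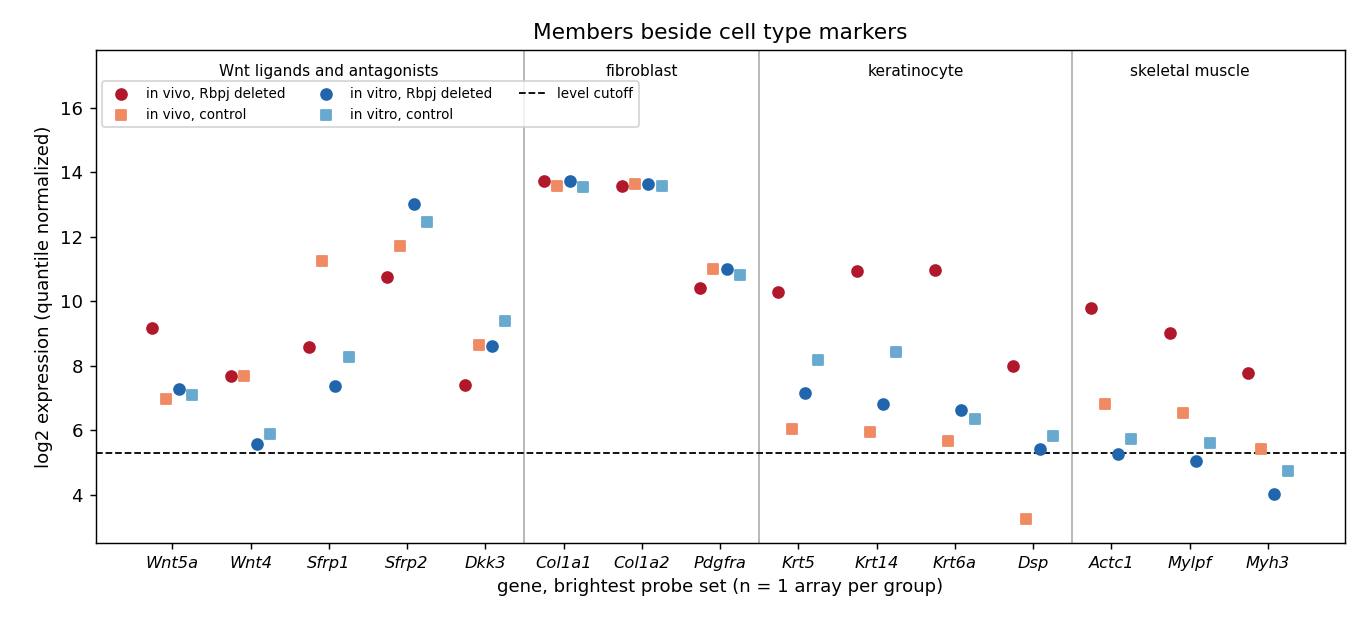
Log2 expression of 5 members and of fibroblast, keratinocyte and skeletal muscle markers (x axis, brightest probe set of each gene) on the 4 arrays; the dashed line is the level cutoff of 5.28. Col1a1 and Col1a2 lie within a narrow band on all arrays. The keratinocyte and muscle genes shown, only some of each list, are highest on the deleted in vivo array. Krt10, a measured keratinocyte marker that is not shown, was lower there than in the in vivo control.

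A measure of RNA quality differed between the cultures and is given beside the probe sets that disagreed in vitro. The 3' probe set of Gapdh exceeded its 5' probe set by 0.02 in the deleted and by 1.0 in the control culture, that of Actb by 0.40 in the deleted and 1.11 in the control culture, and that of Pcx by 2.01 in the deleted and 3.16 in the control culture. In vivo the Gapdh excess was 0.13 in the deleted and 0.14 in the control sample, and that of Actb 0.15 in the deleted and 0.41 in the control sample. Tfrc ran the other way in both pairs, at 1.54 in the deleted and 1.25 in the control in vivo sample and 1.45 in the deleted and 0.96 in the control culture. The in vitro 2-fold excess was unevenly spread over probe sets: 615 of 7211 measured probe sets that were not the brightest of their gene were at least 2-fold higher (8.53%), against 86 of 10916 brightest ones (0.788%). The Sfrp1 probe set with the in vitro excess was not the brightest of its gene. Whether the 3' excess played a part in its in vitro value was not tested.

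**Figure D4:**
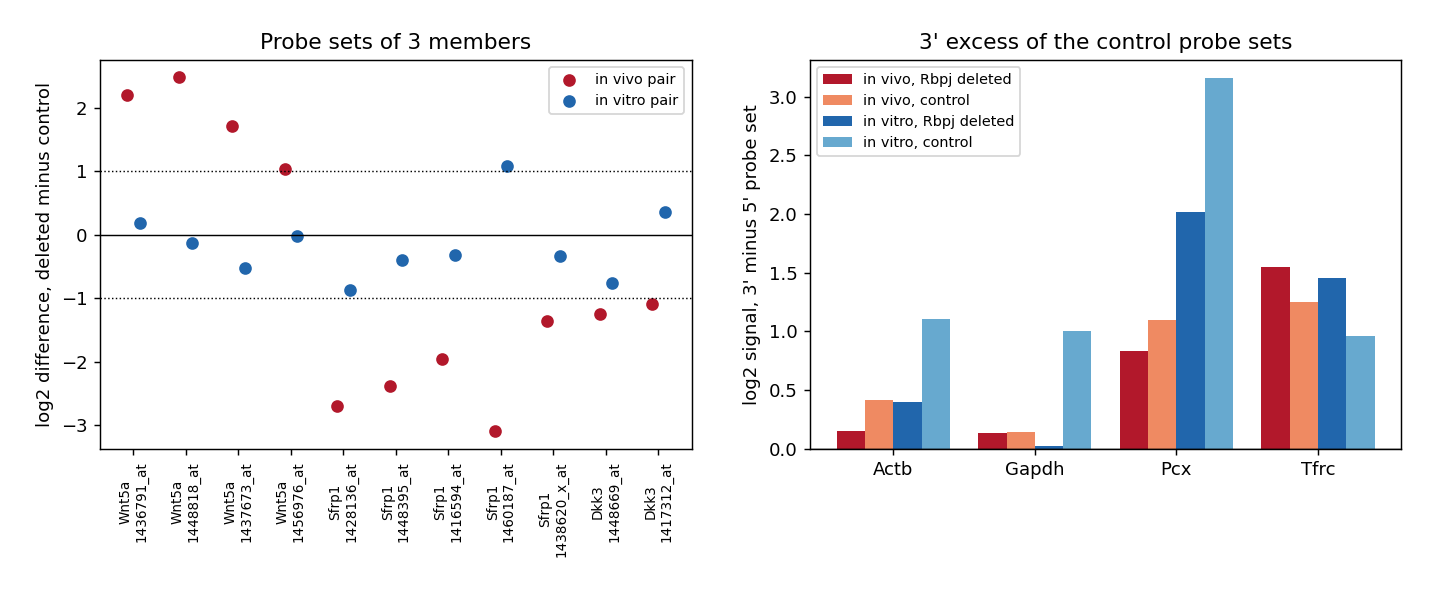
Left, log2 difference (deleted minus control) of each probe set of Wnt5a, Sfrp1 and Dkk3 in the in vivo and in vitro pairs, with dotted lines at 2-fold; right, log2 excess of the 3' over the 5' control probe set for 4 genes on the 4 arrays. Probe sets of a gene share their sign in vivo and split in vitro, and the control culture has the largest 3' excess for Actb, Gapdh and Pcx.

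The deletion effect common to both systems was estimated with limma over the 18127 measured probe sets with the system as a covariate, which leaves 1 residual degree of freedom. After Benjamini-Hochberg adjustment at 0.05, 0 probe sets passed in the whole table, higher or lower (0% called), and 0 of the 15 member probe sets. At an unadjusted p under 0.05 limma gave 1150 probe sets in all (6.34%) and 2 of the 15 member probe sets. These were Dkk3 1448669_at, with a shared log2 effect of -1.01 ± 0.24 (SE, limma adjusted p = 0.69), and Sfrp1 1428136_at, at -1.79 ± 0.49 (SE, limma adjusted p = 0.69). Each of these 2 probe sets was lower in the deleted sample of both pairs. The other Dkk3 probe set, 1417312_at, had a shared effect of -0.37 ± 0.40 (SE) and was higher in the deleted culture, by 0.35. Wnt5a 1436791_at had a shared effect of 1.19 ± 0.53 (SE, limma adjusted p = 0.69), whose 95% interval ran from -0.24 to 2.62. Whether an effect differed between the systems could not be tested, since 4 arrays leave no residual degree of freedom for it. The values side by side were 2.20 in vivo and 0.18 in vitro for Wnt5a, -2.70 in vivo and -0.88 in vitro for Sfrp1, and -1.25 in vivo and -0.77 in vitro for Dkk3, on the brightest probe set of each.

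The same limma fit gave the difference between the systems, in vivo minus in vitro, for the order of levels. Of all 18127 probe sets, 25 were higher in vivo (0.138%) and 97 were lower (0.535%) after adjustment, and 0 of the 15 member probe sets passed, with 9 at an unadjusted p under 0.05, where limma gave 4632 of all probe sets (25.6%). Wnt4 was nearest, with a log2 difference of 1.96 ± 0.22 (SE, limma adjusted p = 0.060), or 3.88-fold higher in vivo. Over the alternatives its limma adjusted p ranged from 0.0284 to 0.10: it passed with the brightest probe set a gene (0.0284) and without the deletion term (0.0343), and missed with the median of a gene's probe sets (log2 difference 1.29, adjusted p = 0.075). Dkk2 was lower in vivo by -1.10 ± 0.21 (SE, limma adjusted p = 0.093), Sfrp2 by -1.51 ± 0.42 (SE, limma adjusted p = 0.14), and Sfrp1 1428136_at was higher in vivo by 2.10 ± 0.49 (SE, limma adjusted p = 0.11). On their measured probe sets Wnt5a, Wnt4, Wnt11, Sfrp1 and Sfrp4 had higher means in vivo, and Sfrp2, Dkk2 and Dkk3 had lower means in vivo. For Wnt5a the higher mean rested on the deleted in vivo array. Its in vivo and in vitro controls read 6.98 and 7.08 on 1436791_at, 6.48 and 6.46 on 1448818_at, and 5.62 and 5.85 on 1437673_at. The system, the array batch, culture history and exposure to virus cannot be told apart in the differences between the systems.

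The rest of the pathway was read from lists of genes, with the brightest probe set of each gene. Of 15 other Wnt ligands 7 were measured. At 2-fold in either pair were 0 of these 7, near the background (2.81% higher and 3.81% lower in vivo, 0.788% and 1.15% in vitro). The largest differences were those of Wnt9a (-0.38 in vivo), Wnt3a (-0.37 in vivo) and Wnt10a (0.25 in vivo). Of 9 other secreted antagonists 8 were under the cutoff, including Dkk1, Sost, Notum and Frzb, and the measured one, Sfrp5, was at 0.16 in vivo and 0.06 in vitro. Wnt5a was thus the single measured ligand with a 2-fold difference in vivo. For Wnt secretion, Wls, the carrier that brings ligands to the cell surface, was at -0.78 in vivo and 0.59 in vitro, and Porcn, which attaches their lipid, at -0.30 in vivo and -0.25 in vitro. The 4 Wls probe sets ranged from -0.78 to -0.08 in vivo and from 0.0033 to 0.78 in vitro.

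The 14 measured receptor genes had a median difference of -0.50 in vivo, and 1 was at least 2-fold lower in the deleted sample, where 3.81% of 10916 genes were. That gene was Fzd5, at 6.28 in the deleted and 7.71 in the control in vivo sample, although its 2 probe sets ranged from -1.43 to 0.17. Fzd1 was at -0.90 in vivo, with its other probe set at -1.08, and Fzd8 at -0.83, with its other probe set at 0.03. The in vitro median of the receptors was -0.08, with 0 of 14 at 2-fold (background 0.788% higher and 1.15% lower). Of the ROR receptors for Wnt5a, Ror2 read 7.17 in the deleted and 7.67 in the control in vivo sample, and Ror1 was under the cutoff on both, at 4.38 in the deleted and 5.05 in the control.

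In the R-spondin axis, whose secreted proteins strengthen Wnt signals by binding LGR receptors, 3 of 6 measured genes were at least 2-fold lower in vivo (background 3.81%) and 0 of 6 in vitro (background 1.15%). Lgr5 read 8.48 in the deleted and 11.51 in the control in vivo sample, Rspo3 read 4.56 and 6.28, and Lgr4 read 8.13 and 9.46, again deleted before control. In vivo a second probe set of each was at 0.0031, 0.13 and -0.03, so these deficits rest on 1 probe set a gene. Intracellular components had a median of 0.0046 in vivo and 0.23 in vitro. At 2-fold in either pair were 0 of 10, near the background (2.81% higher and 3.81% lower in vivo, 0.788% and 1.15% in vitro). The largest values were those of Dvl2 (-0.75), Tcf7l2 (-0.69) and Gsk3b (0.63), all in vivo. There the other Dvl2 probe set was at 0.04, and the 4 of Tcf7l2 ranged from -0.95 to -0.35 and the 6 of Gsk3b from -0.50 to 0.68. Of 10 measured target genes of beta-catenin, 1 was at least 2-fold higher in vivo, where 2.81% of genes were (Ccnd1, at 10.36 in the deleted and 8.96 in the control sample) and 1 at least 2-fold lower, where 3.81% were (Lgr5, named above). Myc, which is induced by many growth signals, was at 0.99 in vivo and 0.65 in vitro. Axin2, a negative-feedback gene of the pathway and its most general target, was at 0.07 in vivo and -0.10 in vitro.

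**Figure D5:**
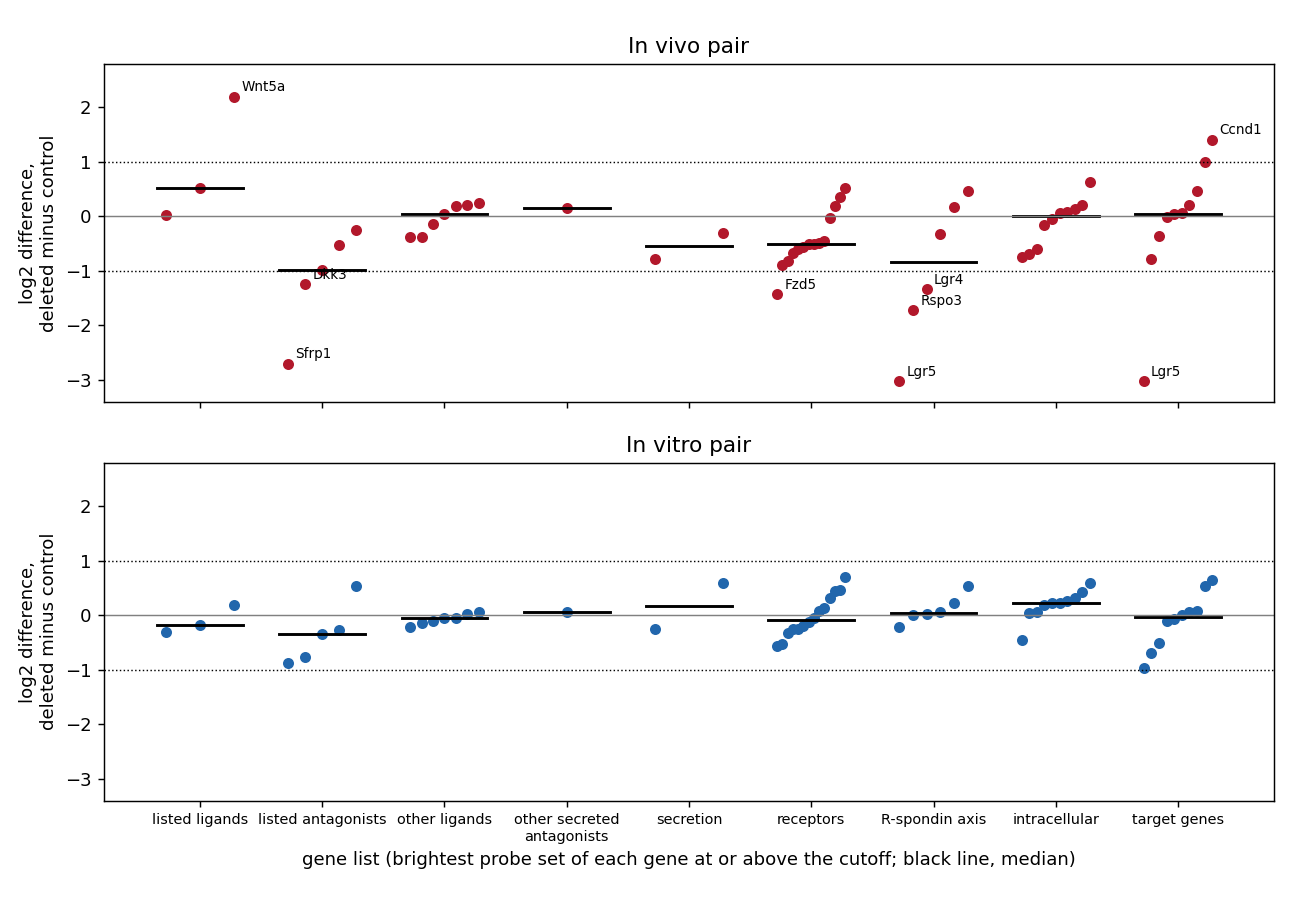
Log2 differences (deleted minus control, y axis) of the brightest probe set of measured genes in each Wnt pathway list (x axis) in the in vivo pair (top) and the in vitro pair (bottom), with black lines at list medians and dotted lines at 2-fold. In vivo, Wnt5a is the only ligand past 2-fold, Wnt11 lies at 0.52, and the points of the separate list of other ligands lie between -0.38 and 0.25. No brightest probe set of the lists shown passes 2-fold in vitro, though other probe sets, such as 1 of Sfrp1 at 1.08, do.

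Of the 10 genes, 6 (Sfrp2, Dkk2, Wnt4, Wnt2, Wnt11 and Wif1) were matched to RefSeq promoter windows of build GRCm38.p6, and the promoters of Wnt5a, Sfrp1, Sfrp4 and Dkk3 were not analysed here. The 250 bases before the listed start are printed for the antagonists Sfrp2 and Dkk2, both lower in the deleted in vivo sample, and for the ligands Wnt4 and Wnt11. They were searched for the RBP-J core GTGGGAA, for the AP-1 site TGANTCA and for the TCF/LEF site CTTTGAT on both strands, and for the TATA element TATAAA on the sense strand. Capitals mark a match, and no matches overlapped. Wnt11 is shown at the first of its 2 listed starts.
Sfrp2, chr3:83766071-83766320, plus strand: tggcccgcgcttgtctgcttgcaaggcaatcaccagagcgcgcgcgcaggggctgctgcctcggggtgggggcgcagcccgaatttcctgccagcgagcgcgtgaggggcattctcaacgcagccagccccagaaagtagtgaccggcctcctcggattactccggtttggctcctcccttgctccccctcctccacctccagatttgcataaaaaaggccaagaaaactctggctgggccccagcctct
Dkk2, chr3:132085042-132085291, plus strand: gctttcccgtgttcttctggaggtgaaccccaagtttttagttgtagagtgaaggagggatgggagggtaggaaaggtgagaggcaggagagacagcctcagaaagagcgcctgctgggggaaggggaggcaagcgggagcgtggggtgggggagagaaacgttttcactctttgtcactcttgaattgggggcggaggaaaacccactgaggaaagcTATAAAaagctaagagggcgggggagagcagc
Wnt4, chr4:137277385-137277634, plus strand: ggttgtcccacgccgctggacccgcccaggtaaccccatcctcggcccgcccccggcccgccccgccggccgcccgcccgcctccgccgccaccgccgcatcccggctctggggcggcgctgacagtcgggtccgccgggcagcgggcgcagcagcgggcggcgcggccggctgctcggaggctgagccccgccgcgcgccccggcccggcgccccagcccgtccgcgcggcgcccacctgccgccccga
Wnt11, chr7:98834862-98835111, plus strand: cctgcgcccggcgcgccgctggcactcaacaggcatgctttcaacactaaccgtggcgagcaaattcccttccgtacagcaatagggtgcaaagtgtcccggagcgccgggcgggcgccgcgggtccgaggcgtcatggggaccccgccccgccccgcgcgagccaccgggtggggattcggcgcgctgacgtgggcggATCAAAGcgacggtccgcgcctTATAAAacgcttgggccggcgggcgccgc
Of these 4, Dkk2 held a TATA element, which started at -32 relative to the listed start. The printed Wnt11 window held a TATA element at -29 and a TCF/LEF site at -51. The window of the second listed Wnt11 start, also searched, held no match. Over all 32851 promoter windows of the same length, 5.42% held the RBP-J core, 6.75% the AP-1 site, 3.21% the TCF/LEF site and 7.59% the TATA element. The RBP-J core and the AP-1 site were not found in the windows of any of the 6 genes, which says only that these letters are not there. Wnt4 had the most GC-rich window, at 85.2% with 44 CpG dinucleotides, against medians of 52.4% and 6 over all windows, and Sfrp2 (63.6%, 16 CpG) and Dkk2 (55.6%, 7 CpG) were nearer to those medians.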

How the data were processed

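The authors deposited 1 table of log2 expression values (2.87 to 13.79) for 45101 probe sets on 4 arrays; the log2 scale was read from the values, and how the authors corrected, summarised and normalized the arrays is not given in the sources used here. Labelled cRNA was made from poly(A) RNA with an oligo(dT) primer, per the labels' protocols, so RNA breakage lowers the signal of probes far from the 3' end. Columns were quantile normalized over the 4 arrays. Of the probe sets, 34945 had 1 gene symbol in the platform annotation after 64 controls were left out, 34741 of which matched a RefSeq gene (GRCm38.p6). Shared effects were fitted with limma 3.58.1 (lmFit, eBayes; R 4.3.3) and adjusted by the Benjamini-Hochberg method. The procedures were tested on simulated data.

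Members and lists were chosen with earlier results of these data known. By rule, all member probe sets were named, and from each other Wnt list up to 3 genes with the largest absolute difference in either pair. Ror1, Ror2, Axin2, the dim genes listed and the markers quoted were named after their values were seen. Alternatives were other normalizations, a pseudocount, level filters, 1 value a gene, probe set subsets, thresholds of 1.5-fold and 3-fold, a variance trend and models without the covariate.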

Additional observations from a re-analysis of the deposited data

Results flagged for a closer look

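Sfrp1 probe set 1460187_at had differences of opposite sign in the 2 systems, each at least 1.5-fold: -3.09 in vivo and 1.08 in vitro, so that the in vivo difference minus the in vitro difference was -4.17. The difference between the systems was not tested, since each direction rests on 1 array against 1. The other 4 probe sets of Sfrp1 were lower in the deleted sample of both pairs.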

How the results depend on the processing

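The shared effect compares deleted with control within each system, and no fit with a replicate number as a block was made because each group holds 1 array and the labels give no such numbers. Without 1 array that fit has no residual degree of freedom, so none was left out. The direction and the side of the 2-fold threshold of each gene's brightest probe set were kept under the 5 alternatives that could move its value (other normalizations, a pseudocount and the median of probe sets) for Wnt5a in vivo (2.07 to 2.26), Sfrp1 in vivo (-2.79 to -2.47) and Dkk3 in vivo (-1.32 to -1.17), and Sfrp2 in vivo, with 1 probe set and 4 such alternatives, stayed just short of it (-0.98 to -0.97). Under the median of its probe sets Wnt5a was at -0.32 in vitro in place of 0.18, Wnt4 at 0.02 in vitro in place of -0.31, and Wnt4 at -0.21 in vivo in place of 0.02. The in vitro count of 1 member probe set at least 2-fold higher became 0 with a pseudocount, a 60th percentile filter, 1 value a gene by either rule, or a 3-fold threshold, and the in vitro count lower became 2 at 1.5-fold. In vivo, 1 value a gene by either rule left 1 member higher and 2 lower, because probe sets merge into genes, and 4 probe sets were at least 3-fold lower. The limma count for the shared effect was 0 in the whole table under every alternative run. For the system difference, 1 member (Wnt4) passed with the brightest probe set a gene and without the deletion term. The whole-table count of 122 became 0 on the values as deposited, with a pseudocount and with no level filter. It became 63 with the median a gene, 237 with a variance trend and 252 with the 60th percentile filter. Without the deletion term it was 345, and with the brightest probe set a gene 449. Loess within each pair gave 244, but it does not normalize the 2 systems to each other, so that count is not comparable. The cause of these changes was not tested. Signals near the background limit Wnt2, Wif1 and the dimmer probe sets of Wnt5a and Wnt4.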

Other observations

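For the members with a 2-fold difference, the genes with the nearest profile over the 4 arrays were looked up among 10916 genes, by the Euclidean distance of mean-centred log2 levels. Nearest to Wnt5a were Mtm1, a phosphoinositide phosphatase (distance 0.11, 7.70 in the deleted and 5.64 in the control in vivo sample), a probe set assigned to Mir1949, and Lmnb1, the gene of lamin B1 (distance 0.23, 8.55 in the deleted and 6.63 in the control in vivo sample). Nearest to Sfrp1 were Ptn, a heparin-binding growth factor (distance 0.60, 8.44 in the deleted and 11.49 in the control in vivo sample), Clec11a (0.90) and the glycolytic enzyme gene Aldoc (0.91), none as close as the neighbours of Wnt5a. Nearest to Dkk3 were Mxd4, a MAX-binding repressor (0.12), Sema5a, a semaphorin (0.12), and Amot, which encodes angiomotin (0.12). These distances describe 4 arrays.

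The balance of calls in vitro depended on which probe sets were counted. Over all measured probe sets 76.9% of the 2-fold calls were higher in the deleted culture, over the brightest probe set of each gene 40.8%, and over the median of a gene's probe sets 70.5%. In vivo the same shares were 46.1%, 42.5% and 46.3%.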
